A study of Monascus purpureus with 6 samples.

Results

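The transcripts described here carry the domains of amino acid and peptide carriers. They were taken from the assembled transcripts (unigenes) of *Monascus purpureus*, a filamentous fungus that makes azaphilone pigments and ethanol, by the Pfam domain in the deposited annotation. A unigene was kept where the annotation named an amino acid permease, a transmembrane amino acid transporter, an OPT oligopeptide transporter or the POT family, and where its mean level over the 6 libraries was at least 0.1 FPKM (the fragments on a unigene, scaled by its length and by the size of the library). The domain was named for 141 unigenes, of which 6 had no FPKM listed and 2 lay below the minimum level. The remaining 133 were described, of 24261 unigenes in the table and 20381 tested. By domain they were 88 amino acid permeases, 19 transmembrane amino acid transporters, 18 OPT members and 8 POT members.

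The study compared wild-type mycelia of the strain MP2022 in fermentation medium with taurine and without it on day 1, by RNA-Seq assembled without a reference genome. There were 3 taurine libraries and 3 control libraries, numbered 1 to 3 in each group. The sample titles call the taurine cells pretreated, and the labels used here give no dose. Nothing in the labels says that the libraries of a group came from separate cultures, so each p-value measures the spread between these libraries, which may be technical.

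Amino acid permeases are membrane carriers that bring amino acids into the cell, some for nearly all amino acids, such as Gap1 of *Saccharomyces cerevisiae*, and some for a single one. In that yeast, GATA factors raise permease genes when preferred nitrogen is short, and arrestin-like adaptors mark permeases for removal from the membrane. Transmembrane amino acid transporters form a separate family whose yeast members (AVT) move amino acids across the vacuole membrane and whose animal relatives include proton-coupled and sodium-coupled carriers. OPT carriers move small peptides and glutathione, and POT carriers, such as Ptr2 of yeast, move di- and tripeptides together with protons. Taurine is a sulfur-containing amino acid with a sulfonate in place of the carboxyl group, and in animals it is carried mainly by a sodium-dependent neurotransmitter symporter.

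Of the 133 transcripts, 111 had a best protein match that names *M. purpureus*. They shared 71 best matches. Of these matches 36 had 1 transcript each, and the other 35 had more than 1 and at most 7. Many members may therefore be isoforms or fragments of 1 gene, which a shared match alone does not show, and they cannot be taken as independent. The FPKM of isoforms that share sequence depends on how reads were divided between them. Lengths ran between 306 and 6693 bases with a median of 2338, against a median of 1280 over all tested unigenes. The median of the mean levels was 1.60 FPKM, against 2.45 FPKM over all tested, and 83 members reached a mean of 1 FPKM and 23 a mean of 10 FPKM. By an estimate from the steps between low values, 1 fragment was worth 0.256 to 0.297 FPKM on 500 bases and 0.0317 to 0.0348 FPKM on 2000 bases.

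The KEGG names of the members often belonged to other proteins, so families were set by the Pfam domain alone, substrates are given where a best protein or nucleotide match names them, and the KEGG types of the permeases are given as KEGG names only. For example, 7 of the 18 OPT members carried the KEGG name of a WD repeat protein and 4 that of a manganese ATPase, and 7 of the 19 transmembrane amino acid transporters carried that of glycerol-3-phosphate dehydrogenase. All 8 POT members carried the KEGG name of proton-dependent oligopeptide transporters. Among the 88 amino acid permeases, KEGG named 40 as choline transport proteins, 23 as yeast amino acid transporters, 13 as L-type amino acid transporters and 7 jointly with the translation initiation factor eIF5B. The other 5 carried the KEGG names of the nucleoporin SEH1 (3 transcripts), an RNA helicase and a potassium/chloride transporter. They were kept in the family by their Pfam domain.

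Control replicate 2 stood apart from the other 5 libraries. The members together summed to 915, 909 and 916 FPKM in taurine replicates 1, 2 and 3, against 918, 1365 and 939 FPKM in control replicates 1, 2 and 3. They took 0.105% to 0.110% of all FPKM in the other libraries and 0.171% in control replicate 2. Of the 133 members, 62 (46.6%) had their highest value in control replicate 2, where 28.3% of all tested unigenes did. At least 2-fold above each other library there were 23 members (17.3%), where 6.43% of all tested unigenes were. Among the 83 members with a mean of at least 1 FPKM, 48 (57.8%) were highest in it and 16 (19.3%) were at least 2-fold above, where 29.3% and 5.08% of all tested unigenes of that level were. By family it was the highest library for 37 of 88 amino acid permeases, 10 of 19 transmembrane amino acid transporters, 9 of 18 OPT members and 6 of 8 POT members. The fits by transcript and the family sums below were therefore also computed without this library. Its place in the control group was kept as labelled.

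**Figure D1:**
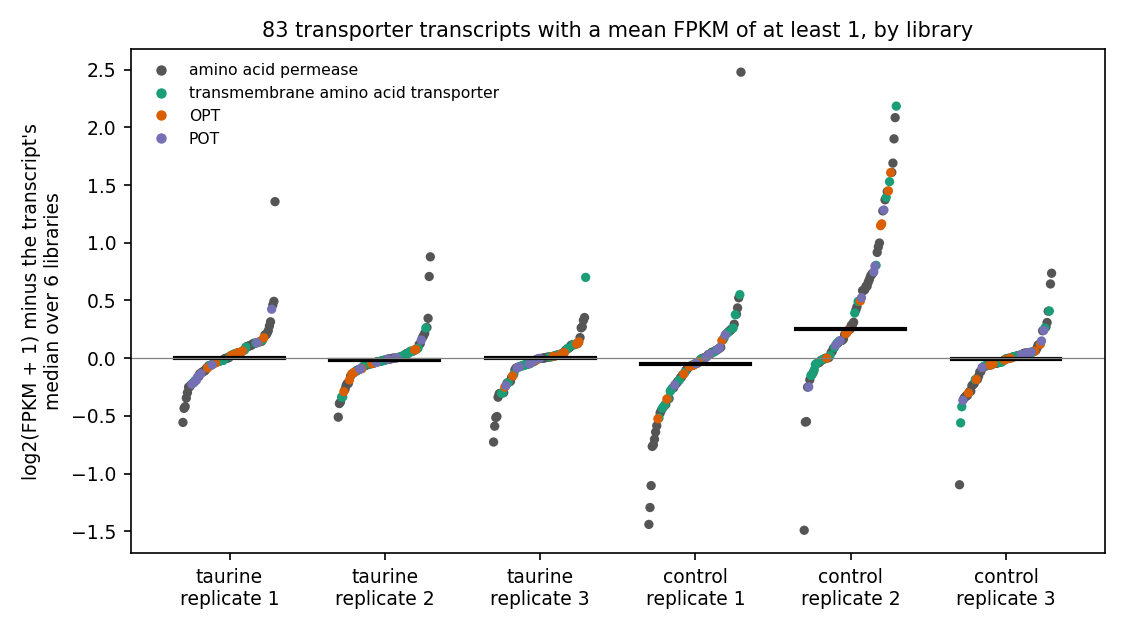
Level of each of the 83 members with a mean of at least 1 FPKM in each library, as log2(FPKM + 1) minus the transcript's own median over the 6 libraries. Points are transcripts coloured by family and sorted within a library, and black lines are medians: the median deviation was 0.25 in control replicate 2 and lay between -0.05 and 0.01 in the other libraries, and 15 transcripts lay more than 1 above their own median in control replicate 2.

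The identifiers of the unigenes end in a library name. Of the 133 members, 50 ended in that of control replicate 2, and 34 of these 50 (68.0%) were highest in it, where 61.3% of all tested unigenes with this ending were. Among the 83 members with another ending, 28 (33.7%) were highest in control replicate 2, against 18.4% of such unigenes over the whole table. What the ending means for the assembly is not given in the sources used here, and its part in the result was not tested.

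No member passed the test between taurine and control. By limma on log2(FPKM + 1), 0 of 133 members had an adjusted p (Benjamini-Hochberg over all 20381) of at most 0.05, where 0.0393% of all tested unigenes did (0.0245% higher and 0.0147% lower), and the lowest adjusted p among the members was 0.999. At an unadjusted p under 0.05 there were 0 members higher, where 1.63% of all tested unigenes were higher, and 1 member lower, where 1.03% were lower and 2.66% passed in either direction. The 3 taurine values lay above all 3 control values for 1 member, against a background of 3.78%, and below them for 7 members (background 2.62%, and 6.41% in either direction). These 7 were 4 amino acid permeases, 2 POT members and 1 transmembrane amino acid transporter, and 2 of them had a mean under 1 FPKM. The 1 above was TRINITY_DN2894_c0_g1_i1-S2A, an L-type carrier by its KEGG name only, with 1.60, 1.93 and 1.61 FPKM with taurine, against 1.30, 1.58 and 1.12 FPKM in the control.

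The members' median log2 fold change (taurine minus control on the log2(FPKM + 1) scale, on which changes at low level come out too small) was -0.09, with 48 members above 0 and 85 below it. Over all tested unigenes the median was 0.02. Without control replicate 2 the members' median was 0.06, with 77 members above 0 and 56 below, and the median over all tested unigenes was 0.03. The sign of the members' median thus rested on control replicate 2. Single members lay between -0.71 and 0.87, and 0 of 133 had a fold change beyond 1 in either direction on this scale. In all tested unigenes 1383 did.

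**Figure D2:**
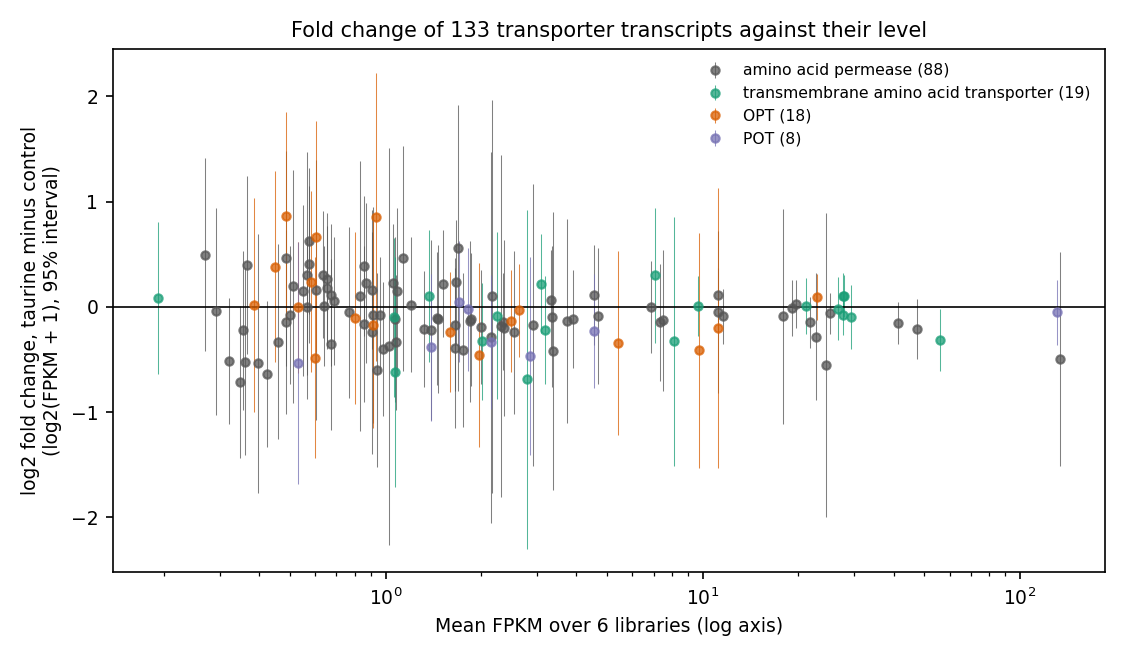
Log2 fold change, taurine minus control on log2(FPKM + 1), against mean FPKM on a log axis for the 133 members, coloured by family, with 95% intervals from limma as bars. All points lay between -0.71 and 0.87, and 1 interval, that of the transmembrane amino acid transporter TRINITY_DN1372_c0_g1_i1-S3A, did not reach 0.

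Without control replicate 2, limma gave 6 members an unadjusted p under 0.05, of which 1 was higher and 5 were lower, and the lowest adjusted p was 0.588. The background without that library was 2.36% higher and 2.08% lower. The 5 lower ones were the main POT transcript, 3 amino acid permeases of at most 1.31 FPKM in any library and TRINITY_DN1372_c0_g1_i1-S3A. The higher one was the OPT transcript TRINITY_DN2303_c0_g1_i1-C2A. With all 6 libraries, only TRINITY_DN1372_c0_g1_i1-S3A of these 6 had a p under 0.05.

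The 4 families were also compared by the sum of their transcripts. Sums of the 88 amino acid permeases averaged 464 ± 2.0 FPKM with taurine and 585 ± 210 FPKM in the control (SD, n = 3 each), with an exact two-sided permutation p of 0.5. Transmembrane amino acid transporters summed to 248 ± 5.71 FPKM with taurine and 268 ± 26.9 FPKM in the control (exact permutation p = 0.2, n = 3 each). In neither family did the difference of the means exceed the spread of the control libraries.

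OPT members summed to 59.7 ± 4.88 FPKM with taurine and 68.6 ± 30.3 FPKM in the control (exact permutation p = 1.0, n = 3 each). Sums of the POT members were 141 ± 2.96 FPKM with taurine and 152 ± 14.2 FPKM in the control (exact permutation p = 0.4, n = 3 each). After Benjamini-Hochberg adjustment over the 4 families the p-values were 0.667 for 3 families and 1.0 for OPT. The smallest p that 3 against 3 libraries allow is 0.1, so these tests could not pass a threshold of 0.05.

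The sum over all 133 members had this smallest p of 0.1, since the highest taurine value of 916 FPKM lay below the lowest control value of 918 FPKM. That gap was narrower than the range within the taurine libraries. Without control replicate 2 the log2 ratio of taurine to control was -0.02 for all members, -0.00082 for amino acid permeases, -0.03 for transmembrane amino acid transporters, 0.22 for OPT and -0.18 for POT, where with all 6 libraries it was -0.23, -0.33, -0.11, -0.20 and -0.11. OPT thus changed sign, and the amino acid permeases came to nearly equal sums in both groups.

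**Figure D3:**
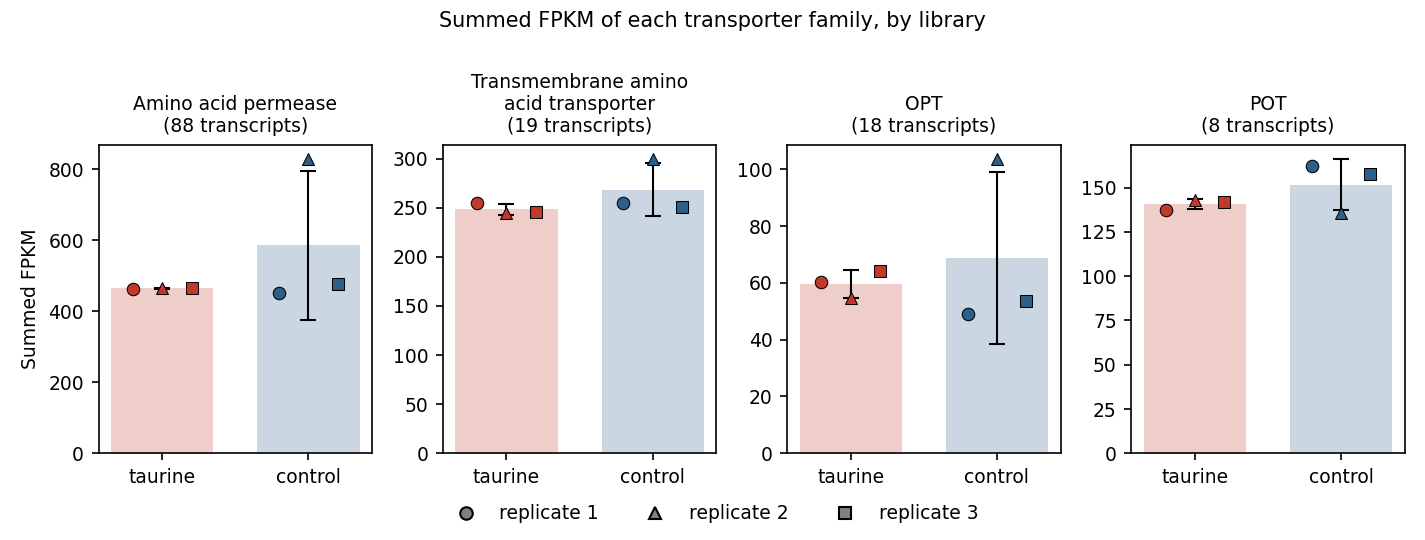
Summed FPKM of each family by library, with bars for the group means, error bars for the SD (n = 3 each) and symbols for the replicate number, taurine at left of control in each panel. Control replicate 2 was the highest library for amino acid permeases (827 FPKM), transmembrane amino acid transporters (299 FPKM) and OPT (104 FPKM) and the lowest for POT (136 FPKM).

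Among the amino acid permeases, the most abundant transcript was TRINITY_DN2556_c0_g1_i8-C2A (2922 bases), whose best match is the hypothetical protein MPDQ_007558. It stood at 92.0, 106 and 107 FPKM in taurine replicates 1 to 3, against 89.2, 292 and 114 FPKM in control replicates 1 to 3. The groups overlapped, and control replicate 2 was 2.75 times the median of the other libraries. Its log2 fold change was -0.50 (SE 0.42), and 0.01 without control replicate 2. This transcript held 25.4% of all FPKM of the amino acid permeases.

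The next 3 permeases by level varied little. TRINITY_DN2623_c0_g1_i1-S3A, a yeast amino acid transporter type, had 42.8, 43.8 and 44.7 FPKM in the taurine libraries, against 44.8, 60.1 and 48.6 FPKM in the control libraries, a log2 fold change of -0.21 (SE 0.12). TRINITY_DN2673_c0_g1_i1-C1A, an L-type carrier whose best nucleotide match is a high affinity methionine permease, had 38.1, 42.6 and 36.9 FPKM with taurine, against 45.1, 42.7 and 43.0 FPKM in the control, a log2 fold change of -0.15 (SE 0.08). In both, every taurine library lay just below every control library. The L-type carrier TRINITY_DN2674_c0_g1_i1-C1A had 25.3, 23.0 and 25.4 FPKM with taurine and 26.6, 24.8 and 25.6 FPKM in the control, and its groups overlapped (log2 fold change -0.06, SE 0.08).

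The permease closest to a general amino acid permease differed from these. TRINITY_DN4950_c0_g1_i1-S2A has a best nucleotide match to GAP1 of an *Aspergillus* species, while its best protein match is named glyceraldehyde-3-phosphate dehydrogenase. It had 18.1, 14.4 and 16.4 FPKM in the taurine libraries, against 13.5, 69.4 and 14.9 FPKM in the control libraries. Control replicate 2 alone was high, at 4.67 times the median of the others, and the log2 fold change of -0.55 (SE 0.60) turned to 0.19 without it. The proline permease type TRINITY_DN4084_c0_g1_i1-S1A had 23.0, 17.5 and 19.9 FPKM with taurine, against 26.4, 33.4 and 16.7 FPKM in the control, so the control libraries spanned the taurine ones.

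The remaining permeases of this rank were level. TRINITY_DN550_c0_g1_i1-C2A, the leading choline transport protein type, had 19.8, 21.2 and 20.9 FPKM with taurine and 25.0, 23.5 and 20.5 FPKM in the control. TRINITY_DN3900_c0_g1_i1-C2A, a transcript of 4847 bases, had 19.6, 20.1 and 19.9 FPKM with taurine and 20.5, 17.4 and 20.7 FPKM in the control. Its best matches name the RNA helicase Dbp4 and no permease. Neither had an adjusted p under 0.999 by limma.

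**Figure D4:**
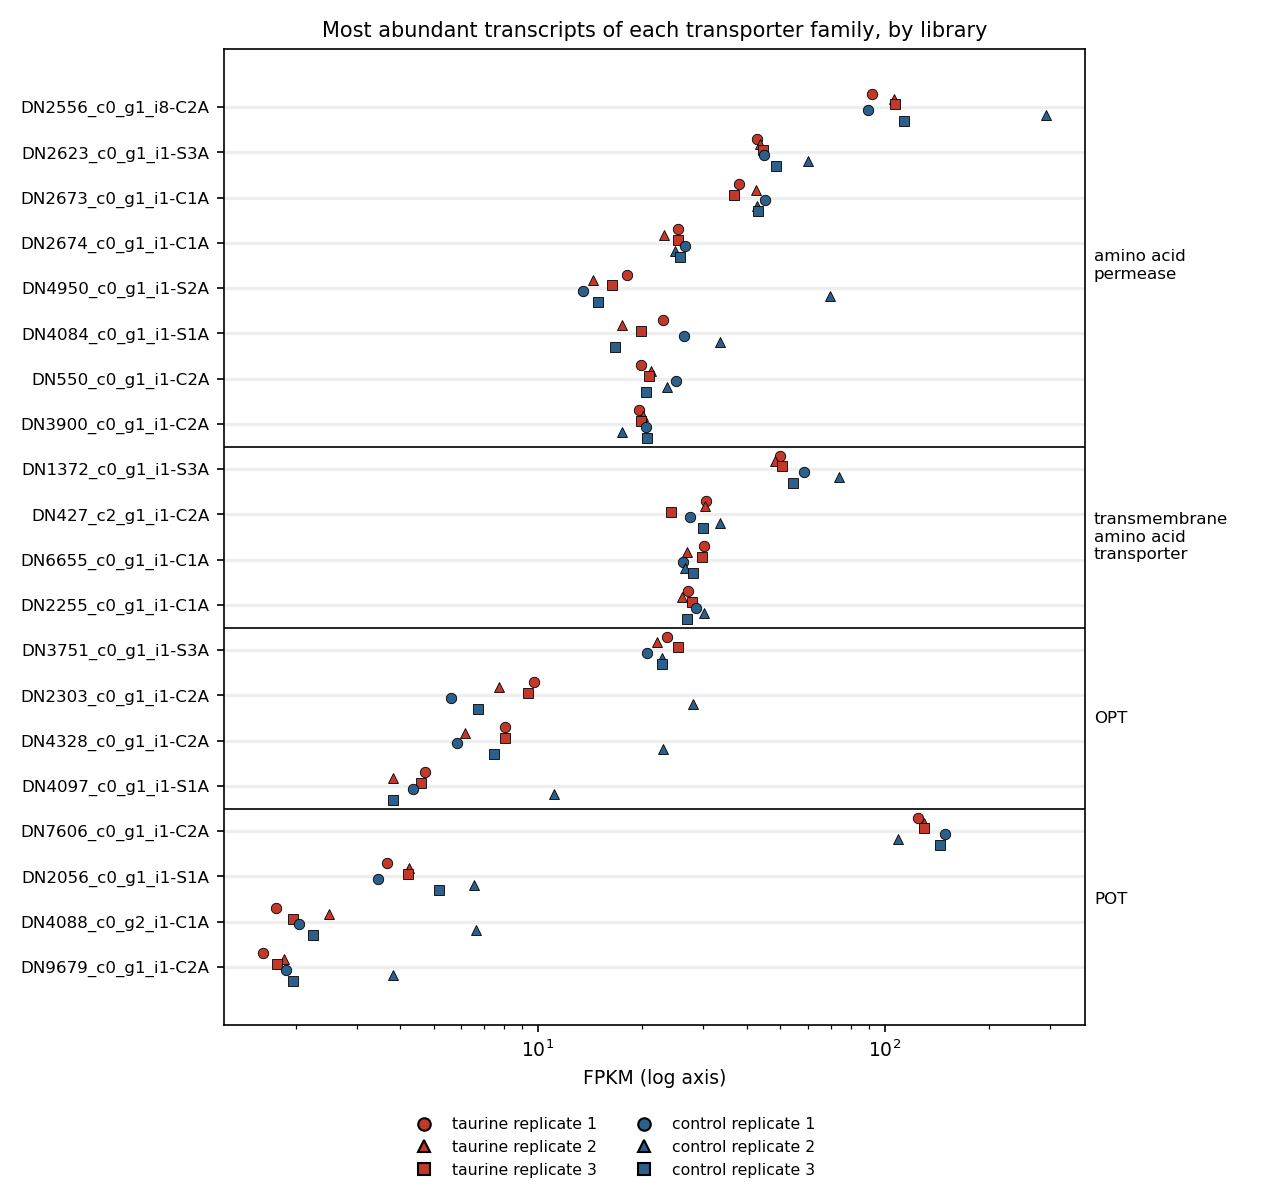
FPKM on a log axis in each library for the 8 amino acid permeases and the 4 transcripts of each other family with the highest mean level, identifiers without their TRINITY prefix, with taurine libraries in red above control libraries in blue. Control replicate 2 (blue triangle) stood far right of the other libraries for TRINITY_DN2556_c0_g1_i8-C2A, TRINITY_DN4950_c0_g1_i1-S2A and 3 of the 4 OPT transcripts, and left of them for the POT transcript TRINITY_DN7606_c0_g1_i1-C2A.

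By KEGG type, the 40 choline transport protein types summed to 105, 100.2 and 102 FPKM in the taurine libraries, against 103, 134 and 97.9 FPKM in the control libraries. This name is used for fungal permeases of several substrates, and 3 of the 40 have a best protein match named as a GABA-specific permease. These 3 were low, with sums of 1.93, 3.46 and 2.26 FPKM with taurine and 2.99, 3.16 and 2.01 FPKM in the control. The 40 lay at a median of -0.05 on the log2 fold change scale, 17 above 0 and 23 below, and at 0.10 without control replicate 2.

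The 23 yeast amino acid transporter types summed to 110, 98.1 and 101.2 FPKM with taurine, against 105, 194 and 99.7 FPKM in the control. The 13 L-type carriers summed to 82.1, 84.7 and 79.9 FPKM with taurine, against 84.0, 107 and 88.5 FPKM in the control. In both types control replicate 2 was the highest library, and the other controls were near the taurine values. Of the L-type carriers 10 lay below 0 and 3 above it, with a median of -0.15, which was 0.07 without control replicate 2.

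The 6 isoforms of the assembled gene TRINITY_DN205_c0_g1, matched to methionine permeases and to an amino acid/polyamine transporter, summed to 7.41, 9.35 and 7.99 FPKM with taurine, against 4.04, 21.7 and 10.1 FPKM in the control. Of these isoforms 4 were highest in control replicate 2, but the 6 did not all move together. TRINITY_DN205_c0_g1_i7-C2A had 0.98, 2.93 and 1.31 FPKM with taurine and 0.83, 6.98 and 0 FPKM in the control. TRINITY_DN205_c0_g1_i1-C2A had 1.59, 2.05 and 2.18 FPKM with taurine and 0.67, 0 and 3.68 FPKM in the control, so it was listed at 0 in the library where its sister isoform was highest. Neither difference passed the test.

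A permease that the study lists among its significant changes is TRINITY_DN53_c0_g1_i1-S3A (6689 bases). It was listed at 0 FPKM in all 3 taurine libraries, against 0.45, 0.32 and 1.31 FPKM in control replicates 1, 2 and 3. By the estimated depth, these control values stood for about 52, 35 and 155 fragments. The identifier ends in the name of taurine replicate 3, where the transcript was listed at 0. The groups did not overlap, and taurine minus control in mean log2(FPKM + 1) came to -0.71 (SE 0.30, limma adjusted p = 0.999). A value of 0 can be a failed estimate where reads are divided among isoforms, so no fold is given. These values come from the deposited FPKM alone, and the direction that the study lists for this transcript is not reported here.

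This transcript shares its best match, MPDQ_007558, with 9 others that have FPKM, among them the most abundant permease, and it held 0.187% of their summed level. Together the 10 transcripts summed to 133, 155 and 161 FPKM in taurine replicates 1, 2 and 3, against 121, 385 and 158 FPKM in control replicates 1, 2 and 3. Of this sum TRINITY_DN2556_c0_g1_i8-C2A held 72.0%. A further long transcript, TRINITY_DN2363_c0_g1_i10-S2A, was listed above 0 in 1 library of each group, at 1.56 FPKM in taurine replicate 1 and at 4.57 FPKM in control replicate 1. The long transcripts thus moved in different ways between single libraries, while the sum over the match did not separate the groups.

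**Figure D5:**
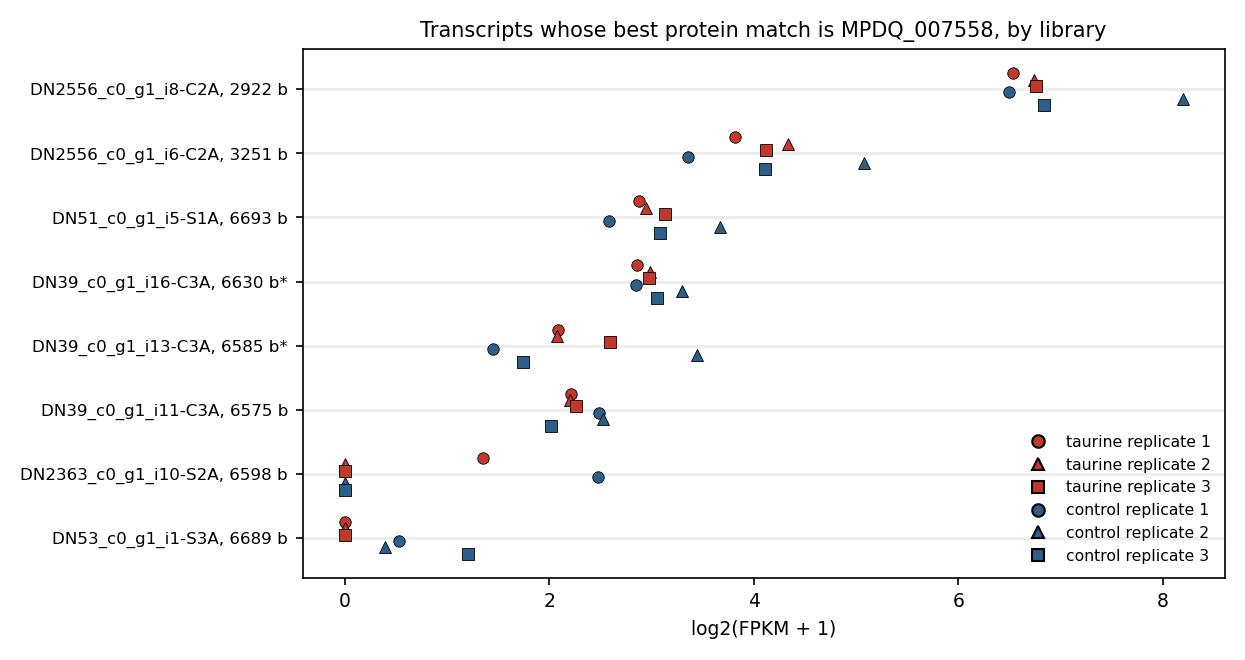
Level as log2(FPKM + 1) in each library for the 8 transcripts of at least 500 bases whose best protein match is MPDQ_007558, with lengths in bases, taurine in red above control in blue. Asterisks mark the transcripts that carry a fungal transcription factor domain and no permease domain. TRINITY_DN53_c0_g1_i1-S3A is at 0 in the 3 taurine libraries and is the least abundant of the 8.

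Transmembrane amino acid transporters were the family with the most abundant typical member, with a median of the mean levels of 7.07 FPKM, against 1.17 FPKM for amino acid permeases, 0.923 FPKM for OPT and 1.98 FPKM for POT. TRINITY_DN1372_c0_g1_i1-S3A (best match MPDQ_000824) was the only member with an unadjusted p under 0.05 when all 6 libraries were used. It had 50.1, 48.2 and 50.4 FPKM in taurine replicates 1 to 3, against 58.6, 74.1 and 54.5 FPKM in control replicates 1 to 3. Every taurine library lay below every control library, and the log2 fold change was -0.31 (SE 0.12, 95% interval -0.61 to -0.02, adjusted p = 0.999). Without control replicate 2 it was -0.19 (SE 0.05, adjusted p = 0.868).

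The other abundant carriers of this family differed by little. TRINITY_DN427_c2_g1_i1-C2A, a neutral amino acid permease type by its nucleotide match, had 30.5, 30.2 and 24.2 FPKM with taurine and 27.5, 33.4 and 29.9 FPKM in the control. The neutral amino acid transporter TRINITY_DN6655_c0_g1_i1-C1A, which KEGG places with the proton-coupled amino acid carriers of animals, had 30.1, 26.9 and 29.8 FPKM with taurine and 26.2, 26.5 and 27.99 FPKM in the control. TRINITY_DN2255_c0_g1_i1-C1A had 27.1, 26.1 and 27.9 FPKM with taurine and 28.6, 30.1 and 26.9 FPKM in the control. In all 3 the groups overlapped, with log2 fold changes of -0.10 (SE 0.12), 0.10 (SE 0.08) and -0.07 (SE 0.08).

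Named as neutral amino acid carriers were 5 transcripts, 3 of them by their KEGG name (solute carrier family 38) only. The 5 summed to 117, 110 and 105 FPKM with taurine, against 107, 107 and 110 FPKM in the control, and control replicate 2 did not stand out in them. Their log2 fold changes lay between -0.10 and 0.22, and none had an unadjusted p under 0.05. A contrasting member was TRINITY_DN1084_c0_g1_i1-C2A, with 1.33, 1.48 and 1.30 FPKM with taurine, against 2.12, 9.92 and 0.63 FPKM in the control. At 7.46 times the median of the other libraries, its control replicate 2 value was the highest relative to the others among the members of at least 1 FPKM for which this ratio exists. Its sister isoform TRINITY_DN1084_c0_g1_i2-C2A had 0.81, 0.30 and 0.49 FPKM with taurine and 0.36, 3.31 and 1.18 FPKM in the control.

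Among the OPT members, TRINITY_DN3751_c0_g1_i1-S3A was the most abundant and the steadiest of the 4 highest. It had 23.6, 22.1 and 25.3 FPKM with taurine, against 20.7, 22.9 and 22.9 FPKM in the control, with overlapping groups and a log2 fold change of 0.09 (SE 0.09). TRINITY_DN2303_c0_g1_i1-C2A had 9.74, 7.72 and 9.35 FPKM with taurine, against 5.60, 27.95 and 6.71 FPKM in the control. All 3 taurine values lay above control replicates 1 and 3 and far below control replicate 2, so its log2 fold change was -0.20 (SE 0.55) with that library and 0.47 (SE 0.14, adjusted p = 0.879) without it.

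The oligopeptide carriers TRINITY_DN4328_c0_g1_i1-C2A and TRINITY_DN4097_c0_g1_i1-S1A, both small oligopeptide transporters by their nucleotide match, showed the same library high. TRINITY_DN4328_c0_g1_i1-C2A had 8.05, 6.16 and 8.05 FPKM with taurine, against 5.85, 22.9 and 7.47 FPKM in the control. TRINITY_DN4097_c0_g1_i1-S1A had 4.72, 3.81 and 4.60 FPKM with taurine, against 4.36, 11.1 and 3.82 FPKM in the control. Their log2 fold changes were -0.41 (SE 0.46) and -0.34 (SE 0.36), and 0.14 and 0.08 without control replicate 2.

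The largest positive differences of all members belonged to OPT fragments of 306 to 374 bases. TRINITY_DN4583_c0_g2_i1-S1A had 1.48, 0 and 1.44 FPKM with taurine and was listed at 0 in all 3 control libraries. TRINITY_DN11844_c0_g1_i1-S3A had 0, 2.27 and 2.42 FPKM with taurine and 0, 0 and 0.89 FPKM in the control. On fragments this short a few reads make such values, and neither passed the test.

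POT carriers were dominated by a single transcript. TRINITY_DN7606_c0_g1_i1-C2A, matched to the peptide transporter Ptr2, held 89.7% of the FPKM of the family and was the second most abundant member. It had 125, 130.2 and 130 FPKM in taurine replicates 1 to 3, against 150, 109 and 144 FPKM in control replicates 1 to 3. Control replicate 2 was the lowest library here, and the taurine values lay between it and the other controls. The log2 fold change was -0.05 (SE 0.13), and without control replicate 2 it was -0.19 (SE 0.04), with the lowest adjusted p of any member in that fit, 0.588.

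The other POT transcripts were at most 6.64 FPKM in any library, and 6 of the 8 members were highest in control replicate 2. TRINITY_DN2056_c0_g1_i1-S1A had 3.68, 4.25 and 4.23 FPKM with taurine, against 3.46, 6.53 and 5.19 FPKM in the control. TRINITY_DN4088_c0_g2_i1-C1A had 1.75, 2.50 and 1.96 FPKM with taurine, against 2.04, 6.64 and 2.24 FPKM in the control. TRINITY_DN9679_c0_g1_i1-C2A had 1.61, 1.85 and 1.77 FPKM with taurine, against 1.88, 3.81 and 1.97 FPKM in the control. In the last the taurine libraries lay below all controls, by 0.03 FPKM at the nearest, with a log2 fold change of -0.33 (SE 0.26).

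High in 1 library alone was TRINITY_DN8754_c0_g1_i1-C2A, matched to an oligopeptide transporter of *Aspergillus clavatus*. It had 0.13, 0.13 and 0.17 FPKM with taurine and 0.13, 2.45 and 0.17 FPKM in the control. The value in control replicate 2 was 18.9 times the median of the other libraries. Low in that library were TRINITY_DN205_c0_g1_i1-C2A, given above, and the permease TRINITY_DN5739_c0_g1_i1-C1A, with 2.05, 1.75 and 1.78 FPKM with taurine and 1.77, 0.88 and 1.75 FPKM in the control. Control replicate 2 was the lowest library for 16 of the 133 members and for 4786 of all 20381 tested unigenes.

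With control replicate 2 included, the members of at least 1 FPKM were also less even within the control than within the taurine group. The SD of log2(FPKM + 1) over the 3 libraries had a median of 0.16 in the taurine group and 0.34 in the control group over these 83 members, and 0.15 in the taurine group and 0.27 in the control group over all 14589 tested unigenes of that level. The control SD was the larger in 67 of the 83 members (80.7%), against 69.1% of all tested unigenes of that level. This SD includes control replicate 2 and was not computed without it. Between control replicates 1 and 3 alone, the median absolute difference of log2(FPKM + 1) was 0.24 in these members. Over all tested unigenes of that level it was 0.18.

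When the transcripts of at least 500 bases that share a best match were summed, the members were counted again by match. Of 66 matches that hold members, 0 passed an adjusted p of 0.05 by limma, with a lowest adjusted p of 0.999, and 1 was lower at an unadjusted p under 0.05, the single-transcript match MPDQ_000824 given above. Of the 8830 matches in all, 0 passed the adjusted threshold, 92 were higher and 47 lower at an unadjusted p under 0.05. The 66 matches had a median of -0.11, with 16 above 0 and 50 below, against 0.03 over all matches, and 45 of the 66 (68.2%) were highest in control replicate 2, where 31.5% of all matches were. The sums by best match were not fitted without control replicate 2, so the part of that library in this median was not tested.

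Related genes were read from lists by Pfam domain. Sodium-dependent neurotransmitter symporters, the carriers of taurine in animals, had 0 tested members. For ammonium carriers (16 tested transcripts) the median of the log2 fold changes was 0.06, and for nucleobase permeases (46 tested) it was -0.04. These medians were 0.11 and 0.01 without control replicate 2, with 1 ammonium carrier higher at an unadjusted p under 0.05. With all 6 libraries neither list had such a transcript. The highest ammonium carrier, TRINITY_DN2818_c0_g1_i1-C2A, had 19.6, 16.6 and 19.7 FPKM with taurine, against 17.4, 30.7 and 14.7 FPKM in the control. Of the nucleobase permeases 50.0% were highest in control replicate 2, near the share of the members, and of the ammonium carriers 25.0%.

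The highest nucleobase list transcript, TRINITY_DN566_c0_g1_i2-C3A, which KEGG names as a pantothenate transporter joined to an alcohol dehydrogenase, had 22.6, 23.4 and 25.8 FPKM with taurine, against 24.2, 36.7 and 25.9 FPKM in the control. Vacuolar cationic amino acid carriers (PQ loop and CLN3 domains) had 11 tested transcripts with a median of 0.03, which was -0.02 without control replicate 2, and the highest, TRINITY_DN6565_c0_g1_i1-S2A, had 76.0, 82.9 and 80.1 FPKM with taurine, against 89.8, 67.3 and 78.2 FPKM in the control. None of the 11 had an unadjusted p under 0.05 with all libraries, and 1 was lower without control replicate 2. TRINITY_DN6565_c0_g1_i1-S2A carries the KEGG name of a mannose-P-dolichol utilization protein and not that of a vacuolar carrier.

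Domains of the proteins that regulate permeases in yeast gave no call either. Arrestin domains were found in 12 tested transcripts (median log2 fold change -0.07) and GATA zinc fingers in 7 (median -0.08), none with an unadjusted p under 0.05. Both medians changed sign without control replicate 2, to 0.06 for arrestin domains, with 1 transcript higher at that threshold, and to 0.03 for GATA zinc fingers. Control replicate 2 was the highest library for 50.0% of the arrestin list and 57.1% of the GATA list. The highest arrestin-related transcript, TRINITY_DN9974_c0_g1_i1-S2A, had 127, 131 and 139 FPKM with taurine, against 113, 212 and 150 FPKM in the control. The highest GATA factor, TRINITY_DN106_c0_g1_i1-C2A, had 37.5, 34.3 and 34.1 FPKM with taurine, against 37.9, 36.5 and 37.9 FPKM in the control.

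For the 63 tested peptidases, which release amino acids and peptides, the median of the log2 fold changes was -0.02, and 0.03 without control replicate 2, and none had an unadjusted p under 0.05 in either case. The highest was TRINITY_DN81_c2_g1_i1-S3A, an aspergillopepsin type acid protease, with 714, 575 and 613 FPKM with taurine, against 383, 697 and 634 FPKM in the control. Control replicate 1 was its low library, and the groups overlapped.

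Amino acid catabolism had 71 tested transcripts with a median of -0.01, which was 0.03 without control replicate 2. At an unadjusted p under 0.05 there were 2 higher and 1 lower, all aminotransferases, where 1.63% and 1.03% of all tested unigenes were. The lowest adjusted p by limma was 0.907. Leaving out control replicate 2 gave 4 higher and 1 lower, where 2.36% and 2.08% of all tested unigenes were. The 4-aminobutyrate (GABA) aminotransferase TRINITY_DN299_c0_g1_i1-S1A had 199, 173 and 197 FPKM with taurine, against 146, 127 and 139 FPKM in the control, so that its log2 fold change came to 0.46 (SE 0.09, limma adjusted p = 0.907). Its taurine libraries lay above all control libraries. In the list this held for 5 transcripts, and 2 lay below, where 3.78% and 2.62% of all tested unigenes did. The enzyme removes the amino group of GABA. The highest transcript of the list, the mitochondrial aspartate aminotransferase TRINITY_DN2925_c0_g2_i1-C2A, had 467, 485 and 469 FPKM with taurine and 491, 471 and 466 FPKM in the control.

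Taurine dioxygenase domains, found in enzymes that open sulfonates such as taurine in yeast and bacteria, were in 14 tested transcripts with a median of -0.24, and 1 was higher and 1 lower at an unadjusted p under 0.05. The median was -0.08 without control replicate 2, which was the highest library for 57.1% of the list and at least 2-fold above each other library for 35.7%. The higher was TRINITY_DN2285_c0_g1_i1-S3A, a sulfonate dioxygenase by its KEGG name, with 10.7, 9.72 and 11.6 FPKM with taurine, against 7.53, 9.33 and 8.18 FPKM in the control (log2 fold change 0.32, SE 0.13, adjusted p = 0.999). The lower was TRINITY_DN1360_c0_g1_i2-C2A, a xanthine dioxygenase by its KEGG name, with 1.27, 1.74 and 0.85 FPKM with taurine, against 2.26, 5.91 and 2.33 FPKM in the control (log2 fold change -0.90, SE 0.36, adjusted p = 0.999). Without control replicate 2, 0 transcripts of this list were lower at that threshold and 1 was higher. The highest transcript of the list, TRINITY_DN1285_c0_g1_i1-S2A, is matched to trimethyllysine dioxygenase, an enzyme of carnitine synthesis, and had 32.9, 34.2 and 30.9 FPKM with taurine, against 36.4, 34.9 and 35.6 FPKM in the control. Across the lists no transcript passed an adjusted p of 0.05. For all lists, the shares of all tested unigenes at an unadjusted p under 0.05 were 1.63% higher and 1.03% lower. Without control replicate 2 they were 2.36% and 2.08%.

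At the edge of the level minimum, the members with the lowest means were TRINITY_DN3514_c0_g3_i1-S1A, at a mean of 0.192 FPKM, and TRINITY_DN2675_c0_g2_i2-S1A, at 0.27 FPKM. Left out were TRINITY_DN723_c0_g1_i7-S2A, at a mean of 0.0967 FPKM, and TRINITY_DN2533_c0_g2_i2-C2A, at 0.0083 FPKM. Both of those left out were above 0 in at most 2 libraries.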

How the data were processed

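RNA of 3 taurine and 3 control samples was sequenced by the authors on a DNBSEQ platform and assembled de novo. The authors deposited 1 table with the FPKM of each unigene in each library, used here as deposited, with its length and annotation. The submitters' processing notes name Bowtie2 2.2.5, RSEM 1.2.8 and DESeq, without their roles. The same table holds the authors' own comparison of the groups (fold change on a log scale with its p and q), which was left unused. FPKM columns were matched to samples by name, and 0 columns of values were left aside. The reference table supplied matched 0 unigene identifiers, and no sequence was analysed here.

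The 20381 unigenes whose mean FPKM reached 0.1, of 20581 with FPKM, were tested as log2(FPKM + 1) with limma 3.58.1 in R 4.3.3 (eBayes with trend, two-sided, Benjamini-Hochberg over all). Family sums were compared by exact permutation. Python 3.11.15, pandas 2.3.3, numpy 2.4.6, scipy 1.17.1 and matplotlib 3.10.9 were used, and the limma procedure was tested on simulated data. The simulation held no deviating library and set large changes in abundant unigenes only. It therefore does not show how the procedure behaves with a library such as control replicate 2 or at low level. The step size of low FPKM values put the libraries at an estimated 16900000 to 18500000 fragments, with 60.0% to 67.5% of the low values within 0.1 of a whole fragment, so the depth is approximate. FPKM totals were 797244 to 865009, with 17168 to 17497 unigenes above 0.

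The members and the related lists were chosen with earlier results of these data known. Named transcripts were the 8 amino acid permeases and the 4 of each other family with the highest mean FPKM, members with an unadjusted p under 0.05, the permease the study lists among its significant changes, the 4 members of at least 1 FPKM with the highest and the 2 with the lowest control replicate 2 relative to the other libraries, and the highest transcript of each related list. Of these, TRINITY_DN39_c0_g1_i30-C3A, a fragment of 427 bases, had 2.05, 1.08 and 0.98 FPKM with taurine and 0, 6.91 and 1.89 FPKM in the control. Other transcripts named, the substrate groups and the assembled genes were chosen after their values were seen. Alternatives were pseudocounts of 0.1 and 0.01, no filter, a mean of at least 1, rescaling to TPM, quantile normalization, sample quality weights, summed isoforms, sums by best match (added after seeing the data), the replicate number as a block and each library left out.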

Additional observations from a re-analysis of the deposited data

How the results depend on the processing

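Under every alternative run, 0 members passed an adjusted p of 0.05. Over all tested unigenes 5 were higher and 3 lower. The counts were 0 higher and 0 lower with a pseudocount of 0.01 and with sums by best match. With sample quality weights they were 9 higher and 6 lower. These weights were 0.593, 0.229 and 4.34 for control replicates 1, 2 and 3, and 0.912 to 1.40 for the taurine libraries. In the weighted fits the control group thus rested mainly on control replicate 3. A pseudocount of 0.1 gave 5 lower. Leaving out 1 library gave 0 to 2 higher and 0 to 1 lower. At an unadjusted p under 0.05, members higher numbered 2 with weights and 1 to 3 with 1 library left out. Members lower numbered 2 with a pseudocount of 0.1, 3 with 0.01, 2 without the filter, 2 with quantile normalization, 7 with weights and 1 to 5 with 1 library left out. Of all tested unigenes 1.63% were higher and 1.03% lower with all 6 libraries, and 2.36% and 2.08% without control replicate 2. This share was not counted with weights or with another library left out, so these counts are not read as results about the members. Deviations of same-numbered libraries had correlations of -0.02, -0.03 and -0.0085, which gave no sign of pairing by replicate number. Such values cannot show that the samples were unpaired. The replicate block gave 0 higher and 0 lower over all tested unigenes and 0 members lower at an unadjusted p under 0.05.

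With 1 library left out, the median log2 fold change was between -0.13 and 0.064 for all members, -0.12 and 0.066 for amino acid permeases, -0.10 and 0.051 for transmembrane amino acid transporters and -0.15 and 0.13 for OPT, the highest value in each case without control replicate 2. With weights it was 0.020 for all members, 0.0192 for amino acid permeases and 0.023 for transmembrane amino acid transporters, and by best match it was -0.24 for OPT. The log2 ratio of the OPT sums was -0.39 to 0.22. The sums were not computed under pseudocounts, weights or the block, which act on the fit alone.

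For the related lists, transcripts with an unadjusted p under 0.05 numbered 8 with weights, 1 by best match and 2 to 5 with 1 library left out for amino acid catabolism, 4 and 0 to 3 (weights and 1 library left out) for nucleobase permeases, 2 and 0 to 1 for ammonium carriers, 2 and 0 to 1 for arrestin domains, 2 and 0 to 2 for peptidases, and 2 and 0 to 1 for vacuolar carriers. There was 1 ammonium carrier with isoforms summed and 1 arrestin domain with quantile normalization. Taurine dioxygenase domains numbered 1 with rescaling to TPM, 1 with the block and 0 to 1 with 1 library left out. The share of all tested unigenes at this threshold was not counted with weights, so these counts are not read as results about the lists. The list medians that moved were 0.058 with weights, 0.049 by best match and -0.025 to 0.057 with 1 library left out for amino acid catabolism, -0.18 at a mean of at least 1 FPKM and 0.19 with weights for ammonium carriers, and 0.029 with weights and -0.053 to 0.032 with 1 library left out for peptidases.

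Signs of single transcripts changed with weights for TRINITY_DN4950_c0_g1_i1-S2A (0.058), TRINITY_DN4084_c0_g1_i1-S1A (0.15), TRINITY_DN3900_c0_g1_i1-C2A (-0.046), TRINITY_DN2303_c0_g1_i1-C2A (0.32), TRINITY_DN4097_c0_g1_i1-S1A (0.096), TRINITY_DN1084_c0_g1_i1-C2A (0.30), TRINITY_DN205_c0_g1_i1-C2A (-0.41), TRINITY_DN2818_c0_g1_i1-C2A (0.27) and TRINITY_DN2925_c0_g2_i1-C2A (0.010). With isoforms summed, TRINITY_DN205_c0_g1_i7-C2A and TRINITY_DN205_c0_g1_i1-C2A came to -0.23, and by best match the first came to -0.19. TRINITY_DN39_c0_g1_i30-C3A was 0.32 with a pseudocount of 0.1 and 1.36 with 0.01. With 1 library left out the ranges that crossed 0 were -0.84 to 0.013 for TRINITY_DN2556_c0_g1_i8-C2A, -0.96 to 0.19 for TRINITY_DN4950_c0_g1_i1-S2A, -0.049 to 0.0683 for TRINITY_DN3900_c0_g1_i1-C2A, -0.16 to 0.007604 for TRINITY_DN427_c2_g1_i1-C2A, -0.59 to 0.47 for TRINITY_DN2303_c0_g1_i1-C2A, -0.77 to 0.14 for TRINITY_DN4328_c0_g1_i1-C2A, -0.59 to 0.077 for TRINITY_DN4097_c0_g1_i1-S1A and -0.19 to 0.030 for TRINITY_DN7606_c0_g1_i1-C2A. They were -1.30 to 0.071 for TRINITY_DN1084_c0_g1_i1-C2A, -0.54 to 0.95 for TRINITY_DN205_c0_g1_i7-C2A, -1.04 to 0.45 for TRINITY_DN39_c0_g1_i30-C3A, -0.30 to 0.20 for TRINITY_DN2818_c0_g1_i1-C2A, -0.0735 to 0.13 for TRINITY_DN6565_c0_g1_i1-S2A, -0.43 to 0.023 for TRINITY_DN9974_c0_g1_i1-S2A, -0.0739 to 0.36 for TRINITY_DN81_c2_g1_i1-S3A and -0.024 to 0.017 for TRINITY_DN2925_c0_g2_i1-C2A. The causes of these sign changes were not tested.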
